A study of Mus musculus with 4 samples.

Results

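The respiratory chain genes were described in total RNA-seq of mouse embryonic fibroblast (MEF) cells with and without topoisomerase 2 beta. The set holds every protein-coding row whose symbol begins with Nduf followed by a, b, c, s or v, with Uqcr, with Cox4 to Cox8, with Atp5 or with mt-, together with Sdha to Sdhd. This rule found 107 of the 54842 gene rows, of which 94 are nuclear genes and 13 are encoded by the mitochondrial genome. The rule used names and no measured value. Of the 107 genes, 105 passed the filter on low counts (10 counts or more in 2 or more libraries), and Cox7b2 and Cox8c, with 0 counts in all 4 libraries, were not tested. The study compared 2 libraries from wt MEF cells with 2 libraries from Top2β-null MEF cells, both untreated and grown in high-glucose DMEM with serum and pyruvate. The Top2β-null cells were gifts from other laboratories, so the genotype and the origin of the cells cannot be told apart in this design. The labels do not say that replicates were separate cultures, and p-values therefore measure the spread between these libraries, which may be technical.

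The respiratory chain of the inner mitochondrial membrane passes electrons from NADH (complex I) and succinate (complex II) through coenzyme Q, complex III and cytochrome c to oxygen at complex IV. The proton gradient that complexes I, III and IV build drives ATP synthesis by complex V. Complexes I, III, IV and V are assembled from subunits of both genomes, whereas complex II is encoded entirely in the nucleus. The mitochondrial genome is transcribed from both strands as long precursors, and tRNAs between the coding genes mark many of the places where these precursors are cut.

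Library totals ran from 133116830 to 149647278 counts, of which 104649599 to 120723191 lay on genes. Top2b, on chromosome 14 from 16365179 to 16435462, had 18259 and 18465 normalised read counts in wt and 3879 and 3789 in Top2β-null MEF cells, a log2 fold change of -2.26 (SE 0.0271). All 9 fibroblast markers examined were detected, and their summed level was 1312010 and 1335994 in wt against 886266 and 890987 in Top2β-null MEF cells, with 3 markers called higher and 2 called lower. Summed leukocyte markers had 2390 and 2467 normalised counts in wt and 1297 and 1302 in Top2β-null MEF cells, with 4 of the 7 below a mean of 10. Of the 3 that were tested, Cd68 fell (1641 and 1688 in wt, 302.4 and 289.2 in Top2β-null), while Csf1r (log2 fold change 0.364) and Itgam (4.68, from about 1 count to 28.0 and 28.7) rose. Of 8 muscle markers 6 were below a mean of 10, Tnnt2 fell slightly (-0.149) and Ttn did not pass (-0.086). Of 4 epithelial markers Epcam and Krt18 were below a mean of 10, while Krt8 (45.4 in both wt libraries, 6.21 and 3.96 in Top2β-null) and Cdh1 (19.2 and 23.2 in wt, 7.25 and 8.91 in Top2β-null) fell at low levels, with log2 fold changes of -3.13 and -1.38. Of 4 germ cell markers 1 had enough counts to be tested, and it did not pass. The part of these marker changes in the results on respiratory chain genes was not tested, and in bulk RNA fewer cells of a type and less RNA per cell cannot be told apart.

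Mitochondrial-encoded genes were lower in Top2β-null MEF cells, and nuclear genes of the same complexes moved in both directions. Of the 13 mitochondrial-encoded genes 12 were lower and 0 higher at an adjusted p below 0.05 by the quasi-likelihood test of edgeR, with Benjamini-Hochberg adjustment across 26566 features. All 13 fitted values were below 0, so that 0 were higher at any threshold, and DESeq2 also gave 0 higher. The median log2 fold change was -0.199, with a range from -2.22 to -0.037, and the median was -0.109 without wt replicate 2 and -0.129 with scaling to the total count. Of the 92 tested nuclear genes 40 were higher, 31 were lower and 21 did not pass, with a median of 0.058 and a range from -1.10 to 0.855. This nuclear median was 0.127 with scaling to the total count and 0.036 without wt replicate 1. Among all features tested 32.5% were higher and 32.5% were lower by the same threshold, and the median over all genes was -0.006. The lower share of the mitochondrial-encoded genes therefore lay above the background. Of the nuclear shares, 33.7% lower lay near the background and 43.5% higher lay above it. The mitochondrial count depended on the method, since 6 of the 13 genes were lower by DESeq2, which differs in both scaling and test, and 7 with scaling to the total count. Without wt replicate 2, 8 were lower and 1, mt-Atp8, was higher. The libraries of the groups did not overlap for 80.5% of all features, and this held for 47 higher and 35 lower of the 92 nuclear genes and for 10 of the 13 mitochondrial-encoded genes, shares near that background. Lack of overlap is given below as a description, and genes chosen by their log2 fold change mostly show it by that choice.

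**Figure D1:**
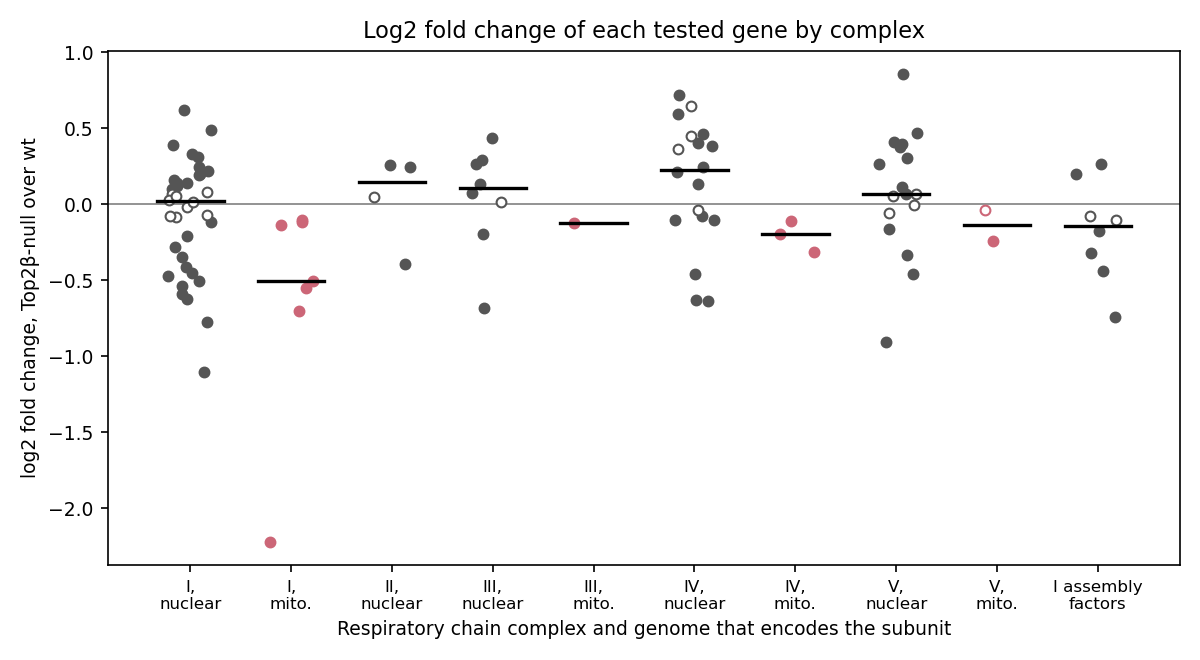
Log2 fold change between Top2β-null and wt MEF cells (vertical axis) for 104 tested genes, grouped by complex and by the genome that encodes them. Each point is 1 gene (grey for nuclear, red for mitochondrial), filled where the adjusted p was below 0.05, and black bars mark medians. The mitochondrial-encoded genes lie at or below -0.037, with mt-Nd3 at -2.22, and the nuclear genes spread from -1.10 to 0.855. The coupling factor gene Atp5s is not drawn.

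By the stricter call (adjusted p below 0.05, absolute log2 fold change above 1 and mean normalised count above 100), 5.27% of all features were called higher and 4.97% lower. Of the respiratory chain genes 2 were called lower, mt-Nd3 and Ndufb7, and 0 were called higher by edgeR or DESeq2, since no member had a log2 fold change above 1. Changes of most members were thus smaller than this cut-off, and 21 of 105 had an absolute log2 fold change above 0.5.

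The balance of the genomes was also expressed as a single value per library. The log2 ratio of summed mitochondrial-encoded to summed nuclear counts was 1.17 and 1.26 in wt and 0.995 and 1.04 in Top2β-null MEF cells. The groups did not overlap, and the difference was -0.199 (SD 0.0591 in wt and 0.0289 in Top2β-null, n = 2 each). The exact two-sided permutation test gave p = 0.333, the smallest value that 2 against 2 libraries allow. Taken as a difference of mean log2(count + 1), in which each gene weighs the same, the value was 4.44 and 4.57 in wt against 4.09 and 4.11 in Top2β-null MEF cells, lying apart by -0.404. Mitochondrial-encoded genes took 1.37% and 1.46% of gene counts in wt (95% Wilson intervals of 1.366 to 1.370 and 1.453 to 1.458, covering counting error only) and 1.23% and 1.29% in Top2β-null MEF cells. Nuclear respiratory chain genes took 0.607% and 0.609% in wt and 0.619% and 0.630% in Top2β-null MEF cells. On the RPKM scale (per kilobase of exon, relative to the gene counts of the library), the summed level of the mitochondrial-encoded genes was 13029 in wt against 11129 in Top2β-null MEF cells, and that of the nuclear genes was 3276 and 3496.

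mt-Nd3, a membrane subunit of complex I, had the lowest log2 fold change of the members when its row was taken alone, but not once its nuclear copy was added (-1.04, against -1.10 for Ndufb7). It had 27261 and 25618 normalised counts in wt and 5394 and 5967 in Top2β-null MEF cells, a 4.65-fold lower level (log2 fold change -2.22, SE 0.0403, adjusted p = 9.2e-17 from the edgeR test). The groups lay far apart, and mt-Nd3 made up 1.72% and 1.51% of mitochondrial-encoded counts in wt against 0.403% and 0.424% in Top2β-null MEF cells. The gene lies on chrM from 9459 to 9806 of GRCm38, between the tRNA genes mt-Tg (glycine, 9391 to 9458) and mt-Tr (arginine, 9808 to 9875), which are not members of the set. mt-Tr had 2309 and 2193 normalised counts in wt and 458.8 and 432.8 in Top2β-null MEF cells, a log2 fold change of -2.34 (SE 0.0592, adjusted p = 5.9e-15 from the edgeR test). mt-Tg had 2486 and 2035 in wt and 1079 and 987.5 in Top2β-null MEF cells, a log2 fold change of -1.13 (SE 0.0776, adjusted p = 2.0e-09 from the edgeR test). Both tRNA rows were called lower, and no other mitochondrial gene was called apart from these and mt-Nd3. Their values carry a limit of counting, since only annotated nuclear transcripts were searched for copies of mitochondrial genes and the annotated copies on chromosome 1 leave unannotated gaps on either side of the copy of mt-Nd3. Reads shared with copies of these tRNA genes were therefore not examined. The coding genes on either side of this segment changed less, mt-Co3 with a log2 fold change of -0.313 and mt-Nd4l with -0.504.

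**Figure D2:**
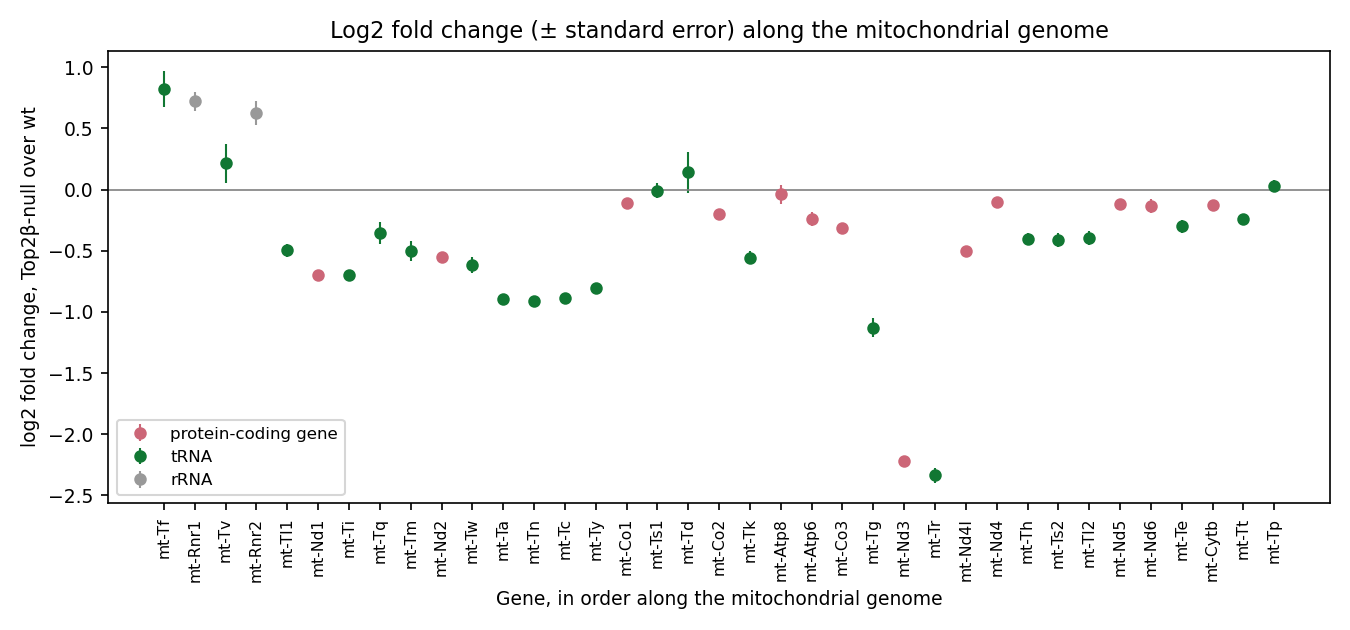
Log2 fold change with its standard error (vertical axis) for the protein-coding, tRNA and rRNA genes of the mitochondrial genome, placed in genome order and not to scale. mt-Nd3 (-2.22) and mt-Tr (-2.34) stand apart from their neighbours mt-Co3 (-0.313) and mt-Nd4l (-0.504), and mt-Rnr1 (0.720) and mt-Rnr2 (0.627) lie above 0.

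The level of mt-Nd3 carries a limit of counting. A search of the annotated nuclear transcripts found pseudogenes on chr1:24611535-24616197 that match 7 mitochondrial-encoded genes over at least 40 bases at 99% identity or more, and 43 bases of mt-Atp8 where it overlaps mt-Atp6. The pseudogene Gm28438 (chr1:24612775-24613119, reverse strand) matches mt-Nd3 over 345 bases at 99.7% identity with 1 substitution, T3C (mt-Nd3 has T at position 3 counted from its first base, at 9461 of chrM, and Gm28438 has C). The first 43 bases of both are shown because they hold this substitution, and it is the one difference found over the aligned bases. The sequence beyond these bases was not compared. The substituted base is in capitals.
mt-Nd3 (chrM:9459-9501, forward strand): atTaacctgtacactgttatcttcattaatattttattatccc
Gm28438 (chr1:24613077-24613119, reverse strand): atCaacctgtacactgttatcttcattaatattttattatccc

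Gm28438 had 25664 and 24789 normalised counts in wt and 18409 and 20600 in Top2β-null MEF cells, a log2 fold change of -0.371 (SE 0.0391). In wt its counts were close to those of mt-Nd3, with a log2 ratio of mt-Nd3 to Gm28438 of 0.0871 and 0.0474. In Top2β-null MEF cells this ratio was -1.77 and -1.79. With both rows added, the sums were 52925 and 50406 in wt and 23803 and 26567 in Top2β-null MEF cells, a log2 fold change of -1.04 (SE 0.0403, adjusted p = 1.2e-12 from the edgeR test). The fall of mt-Nd3 was thus smaller but still past the cut-offs after this sum, in which Gm28438 made up 48.8% of counts in wt against 77.4% in Top2β-null MEF cells. The alignment settings of the paper kept reads that align to several places. How TEtranscripts then counted reads that align equally well to both places is not given in the sources used here. The part of read sharing in the mt-Nd3 value was not tested.

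**Figure D3:**
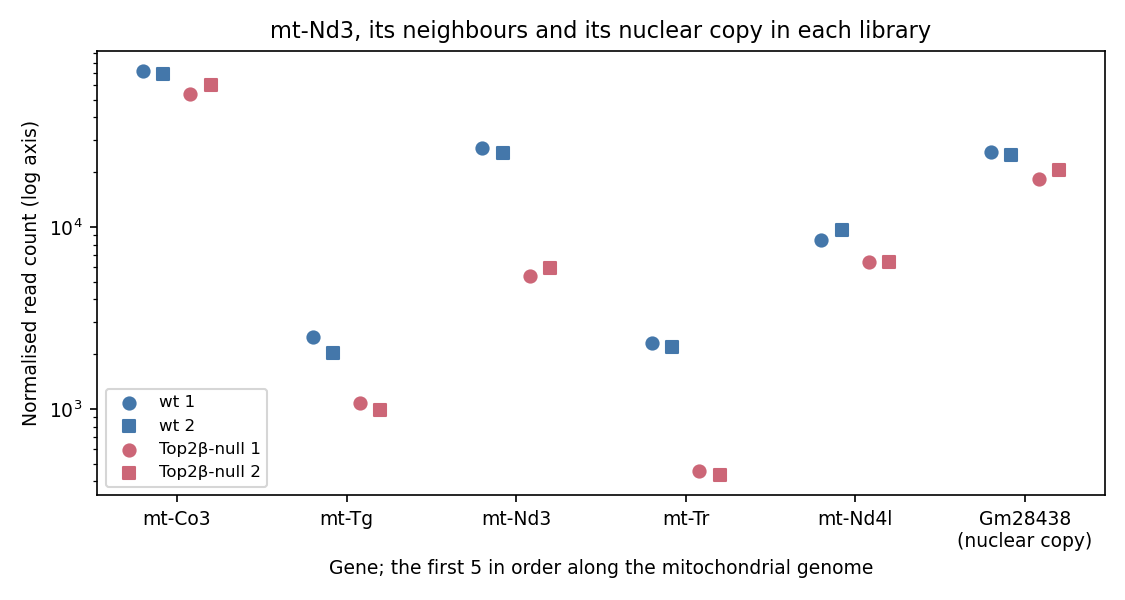
Normalised read counts in each library (log axis) of mt-Nd3, the mitochondrial genes beside it and the nuclear copy Gm28438. The Top2β-null libraries lie at 5394 and 5967 for mt-Nd3 against 27261 and 25618 in wt, and at 18409 and 20600 for Gm28438 against 25664 and 24789.

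The full mitochondrial tRNA genes beside mt-Nd3 are shown because their rows fell with it. Both are taken from the forward strand of GRCm38 and have 68 bases, fewer than the length of a read, so that full-length reads counted there also cover neighbouring sequence.
mt-Tg (chrM:9391-9458): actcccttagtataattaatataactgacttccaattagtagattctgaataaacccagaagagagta
mt-Tr (chrM:9808-9875): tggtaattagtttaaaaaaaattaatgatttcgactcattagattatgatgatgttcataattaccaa

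The other mitochondrial-encoded subunits of complex I fell by different amounts. mt-Nd1 had 245423 and 267793 normalised counts in wt and 151749 and 163880 in Top2β-null MEF cells, a log2 fold change of -0.701 (SE 0.0423). mt-Nd2 had 103815 and 115309 in wt and 72779 and 76898 in Top2β-null MEF cells, a log2 fold change of -0.550 (SE 0.0412). For both genes the groups did not overlap, and mt-Nd1 fell from 15.5% and 15.8% of mitochondrial-encoded counts in wt to 11.4% and 11.6% in Top2β-null MEF cells. mt-Nd4l had 8485 and 9651 in wt and 6384 and 6413 in Top2β-null MEF cells, a log2 fold change of -0.504, which was -0.196 with its nuclear copy Gm10222 added. mt-Nd5 (-0.120), mt-Nd6 (-0.134) and mt-Nd4 (-0.101) passed the edgeR threshold, but their calls were lost by DESeq2 and with scaling to the total count, and the groups overlapped for mt-Nd6 and mt-Nd4. All 7 mitochondrial-encoded complex I genes were lower in the main test, with a median of -0.504, which was -0.196 with the nuclear copies added. The 3 genes of complex IV had a median of -0.199, and -0.198 with the copies added.

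The mitochondrial-encoded genes of complexes III, IV and V had log2 fold changes from -0.313 to -0.037. mt-Co3, a subunit of complex IV, had 71923 and 69269 normalised counts in wt and 53762 and 59914 in Top2β-null MEF cells, a log2 fold change of -0.313 (SE 0.0397). mt-Co2, which takes electrons from cytochrome c, had 57568 and 62201 in wt and 50988 and 53360 in Top2β-null MEF cells, a log2 fold change of -0.199. Neither gene overlapped between the groups, and both remained lower by DESeq2 and with scaling to the total count. mt-Co1, the catalytic subunit, was the most abundant member with 599673 and 615525 in wt and 542726 and 580851 in Top2β-null MEF cells. Its log2 fold change of -0.113 (adjusted p = 0.0156 from the edgeR test) did not pass by DESeq2. mt-Cytb, the mitochondrial-encoded subunit of complex III, had a log2 fold change of -0.125, and its call was also lost by DESeq2. Of the complex V subunits mt-Atp6 had a log2 fold change of -0.239, which did not pass by DESeq2, and mt-Atp8 did not pass (-0.037, adjusted p = 0.698 from the edgeR test). mt-Atp6 had 46060 and 56148 normalised counts in wt and 43946 and 42658 in Top2β-null MEF cells. Without wt replicate 2 the median of the mitochondrial-encoded complex V genes was 0.025 in place of -0.138. The nuclear copies of mt-Co1, mt-Co2, mt-Co3, mt-Atp6 and mt-Nd4 had log2 fold changes from -0.263 to -0.153, and with each copy added the values of these genes lay between -0.254 and -0.108.

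Other RNAs of the mitochondrial genome did not move as one. Of the 22 mitochondrial tRNA rows 17 were lower and 1, mt-Tf (0.821), was higher at an adjusted p below 0.05 by the edgeR test, with a median of -0.453. Among all features 32.5% were lower and 32.5% were higher. The cluster of mt-Ta, mt-Tn, mt-Tc and mt-Ty, read from the opposite strand to most genes, had log2 fold changes from -0.912 to -0.802. The ribosomal RNAs mt-Rnr1 and mt-Rnr2 were higher, with log2 fold changes of 0.720 and 0.627, in libraries from which ribosomal RNA had been depleted. The part of that depletion in the rRNA values was not tested.

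In complex I, 14 of the 36 nuclear subunit genes were higher, 13 were lower and 9 did not pass, against 32.5% of all features each way. The median log2 fold change of 0.020 was -0.023 without wt replicate 2 and 0.089 with scaling to the total count. Of the 7 core subunits, which carry the flavin and iron-sulphur clusters, 3 were higher and 3 were lower. Ndufv1, the NADH-binding flavoprotein, had 7284 and 7238 normalised counts in wt and 8863 and 9390 in Top2β-null MEF cells, a log2 fold change of 0.330. Its partner Ndufv2 had 9209 and 9316 in wt and 6366 and 6697 in Top2β-null MEF cells, a log2 fold change of -0.504. These partners of the NADH-oxidising module thus moved in opposite directions, with no overlap between the groups for either. With the median of the other genes of its chromosome subtracted, Ndufv2 was at -0.036 and Ndufv1 at 0.161. Ndufs7, an iron-sulphur subunit close to the coenzyme Q site, had 4787 and 5113 in wt and 3180 and 3259 in Top2β-null MEF cells, a log2 fold change of -0.621 (SE 0.0379), which was -0.228 after the same subtraction.

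Ndufb7, an accessory subunit of the membrane arm, was the single nuclear member that was called. It had 7456 and 8048 normalised counts in wt and 3685 and 3551 in Top2β-null MEF cells, a log2 fold change of -1.10 (SE 0.0368, adjusted p = 2.0e-13 from the edgeR test). Ndufb10, of the same arm, had 4644 and 5113 in wt and 2845 and 2860 in Top2β-null MEF cells, a log2 fold change of -0.774. Accessory subunits that rose were led by Ndufa5 (1126 and 1346 in wt against 2005 and 1798 in Top2β-null MEF cells, log2 fold change 0.619), Ndufb8 (0.486) and Ndufs6 (0.389). The groups did not overlap for any of these 5 genes, as was so for 80.5% of all features. Ndufb8 rose while Ndufb7, Ndufb9 (-0.593) and Ndufb10 fell within the one B-named series of subunits. With the median of the other genes of its chromosome subtracted, Ndufb9 was at 0.025 and Ndufb10 at -0.307, against -1.22 for Ndufb7, 0.316 for Ndufb8 and 0.244 for Ndufa5. Of the 8 Ndufaf assembly factors, which help to build complex I, 2 were higher and 4 were lower (against 32.5% of all features each way), from Ndufaf7 (-0.739) to Ndufaf2 (0.266). The Ndufaf2 value carries a limit, since 65.6% of its exon bases overlap a lincRNA on the opposite strand.

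The subunits of complex II did not move in one direction. Sdha, the catalytic flavoprotein, had 15737 and 16064 normalised counts in wt and 12014 and 12225 in Top2β-null MEF cells, a log2 fold change of -0.392 (SE 0.0252, adjusted p = 8.6e-10 from the edgeR test). Sdhc, a membrane anchor, had 5248 and 5003 in wt and 6084 and 6190 in Top2β-null MEF cells, a log2 fold change of 0.260. The other anchor, Sdhd, had 7176 and 6874 in wt and 8255 and 8372 in Top2β-null MEF cells, a log2 fold change of 0.243. Sdha therefore fell and both anchors rose without overlap between the groups, which was lacking for 80.5% of all features. Sdhb, the iron-sulphur subunit, had 6368 and 6632 in wt and 6718 and 6708 in Top2β-null MEF cells, and its log2 fold change of 0.046 did not pass (adjusted p = 0.170 from the edgeR test).

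In complex III, 5 of the 8 nuclear genes were higher and 2 were lower, against 32.5% of all features each way. The median log2 fold change was 0.105, and 0.175 with scaling to the total count. Uqcr10, a small subunit, had 5632 and 5476 normalised counts in wt and 3435 and 3474 in Top2β-null MEF cells, a log2 fold change of -0.685 (SE 0.0322). Uqcrq had 4862 and 5134 in wt and 6571 and 6942 in Top2β-null MEF cells, a log2 fold change of 0.435 (SE 0.0344). The groups did not overlap for either gene, as was so for 80.5% of all features. Uqcrh (0.288) and Uqcrb (0.262) also rose and Uqcr11 fell (-0.199, but 0.193 with the median of its chromosome subtracted), whereas the core protein gene Uqcrc2 did not pass (0.013, adjusted p = 0.702 from the edgeR test). The complex also holds cytochrome c1, whose gene Cyc1 is outside the naming rule and had 17311 and 17461 in wt and 11523 and 12289 in Top2β-null MEF cells, a log2 fold change of -0.546. Cycs, which encodes the cytochrome c that carries electrons on to complex IV, had 10772 and 10828 in wt and 14544 and 15067 in Top2β-null MEF cells, a log2 fold change of 0.455. No chromosome median was subtracted for Cyc1 or Cycs.

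In complex IV, 8 of the 18 tested genes were higher, 6 were lower and 4 did not pass, against 32.5% of all features each way. The median log2 fold change of 0.228 was 0.110 without wt replicate 1. Over the 12 genes that are not tissue isoforms the median was 0.171. Ndufa4, a subunit of complex IV despite its name, had 7737 and 7847 normalised counts in wt and 11345 and 12135 in Top2β-null MEF cells, a log2 fold change of 0.591 (SE 0.0310). Cox5b, which binds zinc on the matrix side, had 6407 and 6534 in wt and 8639 and 9167 in Top2β-null MEF cells, a log2 fold change of 0.460. Cox4i1, the widely expressed form of the regulatory subunit Cox4, had 14814 and 14941 in wt and 19531 and 19768 in Top2β-null MEF cells, a log2 fold change of 0.401. In these 3 genes every Top2β-null library lay above every wt library, where 80.5% of all features lacked overlap in either direction. Cox8a (0.382), Cox6b1 (0.246) and Cox6a1 (0.209) also rose. Cox7a2l, known for its place between complexes III and IV in supercomplexes, had 8215 and 8399 in wt and 6243 and 5846 in Top2β-null MEF cells, a log2 fold change of -0.459. Cox6c (-0.107), Cox7b (-0.107) and Cox7a2 (-0.079) passed in the main test but not with scaling to the total count. With chromosome medians subtracted, Cox7a2l was at 0.009, Cox6c at 0.511 and Cox7b at 0.013, so that none of these 3 remained below 0. Cox7a2 stayed below 0, at -0.160. Of the genes named as higher, Cox5b was at 0.333, Cox4i1 at 0.278, Ndufa4 at 0.216, Cox8a at 0.213, Cox6b1 at 0.201 and Cox6a1 at 0.013.

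The tissue isoforms of complex IV were near the lower end of detection. Cox4i2 had 37.3 and 32.8 normalised counts in wt and 49.7 and 65.4 in Top2β-null MEF cells, a log2 fold change of 0.716 (adjusted p = 0.0263 from the edgeR test). Cox7a1, the heart and muscle form, had 92.9 and 76.3 in wt and 52.8 and 56.5 in Top2β-null MEF cells, a log2 fold change of -0.627 (adjusted p = 0.0175 from the edgeR test). Ndufa4l2, known as a hypoxia-induced gene, had 135.2 and 104.3 in wt and 89.1 and 65.4 in Top2β-null MEF cells, a log2 fold change of -0.634 (adjusted p = 0.0124 from the edgeR test). None of the 3 passed by DESeq2. Cox6a2 (0.646), Cox6b2 (0.447) and Cox8b (0.363) did not pass. Cox4i2 lay at 0.383 in wt against 0.671 in Top2β-null MEF cells on the RPKM scale, against 82.6 and 116.7 for Cox4i1.

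In complex V, 9 of the 17 genes were higher, 4 were lower and 4 did not pass, against 32.5% of all features each way. The median log2 fold change was 0.066, which was 0.136 with scaling to the total count and 0.187 with chromosome medians subtracted. Atp5j2, a membrane subunit, had 3404 and 3504 normalised counts in wt and 6210 and 6284 in Top2β-null MEF cells, a log2 fold change of 0.855 (SE 0.0311, adjusted p = 5.8e-13 from the edgeR test), the highest of the members. Atp5j rose from 5857 and 5598 in wt to 7707 and 8134 in Top2β-null MEF cells, a log2 fold change of 0.468. Atp5o, a stalk subunit, is listed under 2 identifiers that share 243 exon bases, with log2 fold changes of 0.408 (ENSMUSG00000022956) and 0.376 (ENSMUSG00000116933), and the files do not separate their shared reads. The second of these rows also shares 287 of its 530 exon bases with Donson, so that its value is uncertain. In all 4 of these rows the groups did not overlap, as was so for 80.5% of all features.

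The genes of the proton-carrying c subunit, Atp5g1, Atp5g2 and Atp5g3, encode the same mature protein, and they differed among themselves. Atp5g2 had 17922 and 18341 normalised counts in wt and 9638 and 9720 in Top2β-null MEF cells, a log2 fold change of -0.906 (SE 0.0253, adjusted p = 1.9e-14 from the edgeR test). Atp5g1 had 9858 and 10903 in wt and 9161 and 9402 in Top2β-null MEF cells, a log2 fold change of -0.162. Atp5g3 had 18681 and 19144 in wt and 18469 and 19204 in Top2β-null MEF cells, and its log2 fold change of -0.006 did not pass. With chromosome medians subtracted, Atp5g2 was at -0.288, Atp5g1 at -0.061 and Atp5g3 at 0.162. The beta subunit gene Atp5b had 137120 and 138751 in wt and 107281 and 111823 in Top2β-null MEF cells, a log2 fold change of -0.332. The delta subunit gene Atp5d had 19766 and 20243 in wt and 14479 and 14603 in Top2β-null MEF cells, a log2 fold change of -0.460. The alpha subunit gene Atp5a1 had a log2 fold change of -0.055, which did not pass (adjusted p = 0.0726 from the edgeR test). With the median of chromosome 10 subtracted, Atp5b was at 0.060 and Atp5d at -0.068.

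**Figure D4:**
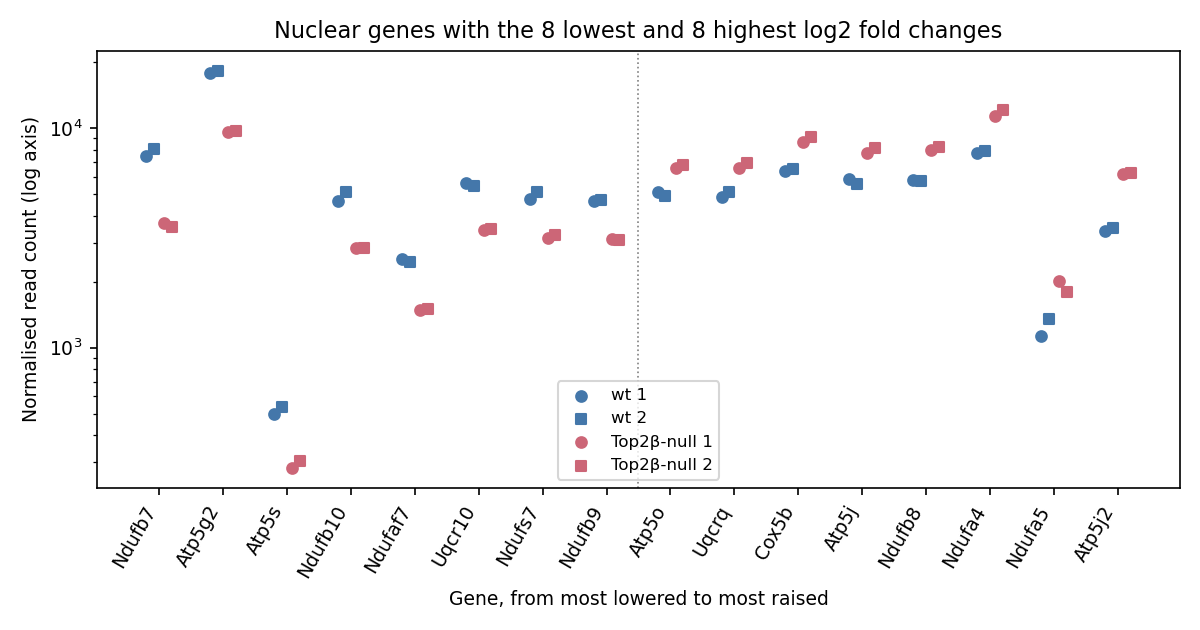
Normalised read counts in each library (log axis) of the 8 nuclear genes with the lowest and the 8 with the highest log2 fold change among those with a mean above 100. The genes were picked by their log2 fold change, which runs from -1.10 for Ndufb7 to 0.855 for Atp5j2.

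The direction of most nuclear genes was that of the other genes of their chromosome, with 67 of 86 members on the side of its median. For each chromosome the median log2 fold change of its other protein-coding genes was taken, over 12050 genes with a mean normalised count above 100. All 7 nuclear members on chromosome 17 (Cox7a2l, Ndufa11, Ndufa7, Ndufaf7, Ndufb10, Ndufv2 and Ndufv3) were lower at an adjusted p below 0.05 by the edgeR test, with a median of -0.471 against -0.468 for the other genes there. All 5 members with a mean above 100 on chromosome 10 (Atp5b, Atp5d, Ndufa12, Ndufs7 and Uqcr11) were lower, with a median of -0.460 against -0.392. All 4 on chromosome 15 (Atp5g2, Cox6c, Ndufa6 and Ndufb9) were lower, with a median of -0.502 against -0.618. On chromosome 6 all 4 (Ndufa4, Ndufa5, Ndufa9 and Ndufb2) were higher, with a median of 0.451 against 0.375. The 3 members each on chromosomes 5 and 3 were also all higher, where the other genes had medians of 0.196 and 0.068. Chromosome 8 went the other way, since Ndufb7 and Ndufa13 of its 3 members were lower, with a member median of -0.281 against 0.124. The medians also differed in sign on chromosome X (0.026 for members against -0.120) and on chromosome 18 (0.005 against -0.089). Across the 86 members above the mean of 100, Pearson's r with the median of the other genes of the chromosome was 0.700 and Spearman's rho was 0.706, given as a description since members of 1 chromosome share that median and the libraries. Across the 12050 other genes r with their own chromosome's median was 0.160. Their log2 fold changes spread more widely (SD 1.516, and 1.496 after subtraction of that median, against 0.376 for the members). A wider spread lowers r for a like shift, so these values of r cannot be compared. How many of the other genes lay on the side of that median is not given here.

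Of the 68 such members that passed in either direction, 57 had the sign of their chromosome's median. With that median subtracted, the SD of the members' log2 fold changes was 0.269 in place of 0.376, and 6 rather than 13 had an absolute value above 0.5. These 6 were Ndufb7 (-1.22), Atp5s (-0.690), Uqcr10 (-0.584), Cox6c (0.511), Uqcrq (0.535) and Atp5j2 (0.659). Of the 68, 13 changed sign after the subtraction, 9 from lower and 4 from higher, among them Uqcr11 (0.193), Cox7a2l (0.009), Ndufb9 (0.025), Cox7b (0.013), Atp5b (0.060) and Ndufa9 (-0.130) as well as Cox6c. After the subtraction the median of complex I was 0.031, that of complex II 0.146, that of complex III 0.140, that of complex IV 0.207 (0.143 over the 12 genes that are not tissue isoforms) and that of complex V 0.187. The number of chromosome copies was not measured in these libraries, and its part in these values was not tested.

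**Figure D5:**
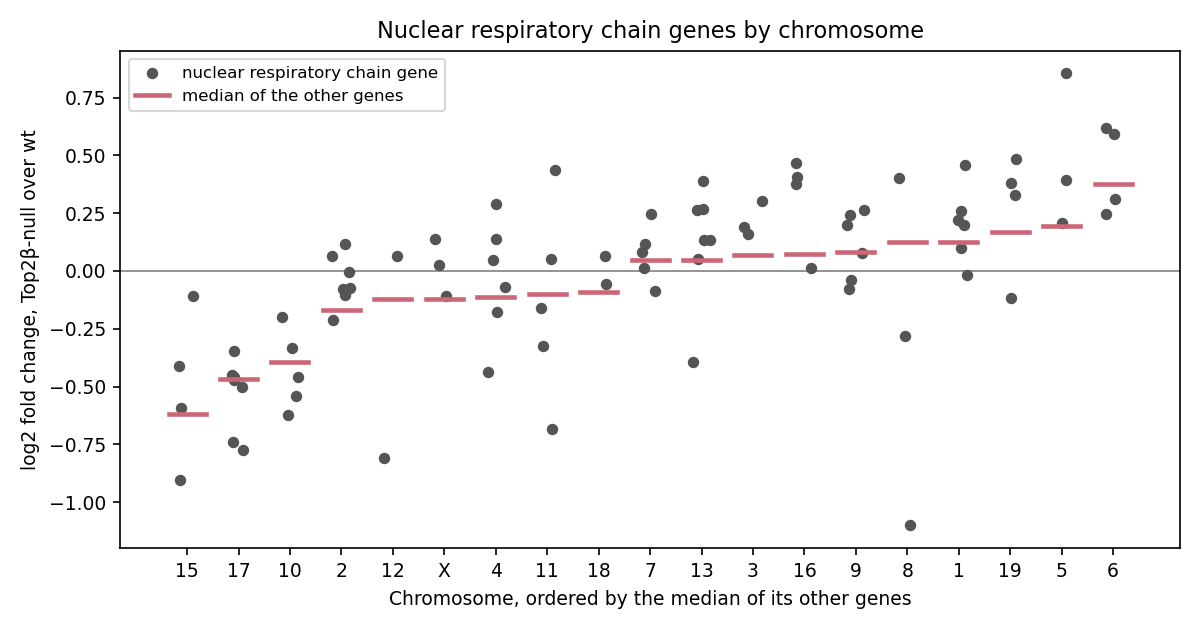
Log2 fold change of 86 nuclear respiratory chain genes (grey points) by chromosome, with red bars for the median of the other protein-coding genes of each chromosome. Chromosomes are ordered by that median. All points of chromosomes 15, 17 and 10 lie below 0 and all points of chromosomes 3, 5 and 6 lie above 0.

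Promoter sequence was examined for motifs known from respiratory chain genes. RefSeq promoter windows of GRCm38.p6, from 250 bases before to 50 bases after the gene start, were matched for 76 of 93 nuclear symbols. Searched on both strands, the NRF1 core GCATGCGC was in 15.8% of member windows and in 2.80% of all 27025 windows. The YY1 core AAGATGGC was in 13.2% against 2.88%, and the ETS core CCGGAAGT, bound by GABPA, was in 6.58% against 4.0%. None of these letter strings contains another. The YY1 core holds the letters ATG, and matches at start codons were not separated from other matches. The windows of all genes were not matched to those of the members by gene type or level. The median log2 fold change was -0.137 for the 12 tested members with the NRF1 core and 0.052 for the 63 without, 0.217 for the 10 with the YY1 core and 0.013 for the 65 without, and 0.052 for the 5 with the ETS core and 0.036 for the 70 without, all given as descriptions. Chromosome medians were not subtracted in these motif groups, and their part in these differences was not tested. The windows of the nuclear genes with the largest fall and the largest rise are shown, with a motif match in capitals. No match was found in the Ndufb7 window, and the YY1 core lay at base 274 of the Atp5j2 window.
Ndufb7 (chr8:83566508-83566807, forward strand): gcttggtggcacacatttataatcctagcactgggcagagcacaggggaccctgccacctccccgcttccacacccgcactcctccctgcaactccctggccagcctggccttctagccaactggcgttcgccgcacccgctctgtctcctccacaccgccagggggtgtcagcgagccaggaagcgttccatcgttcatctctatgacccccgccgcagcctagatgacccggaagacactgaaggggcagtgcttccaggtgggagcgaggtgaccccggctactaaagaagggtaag
Atp5j2 (chr5:145191492-145191791, reverse strand): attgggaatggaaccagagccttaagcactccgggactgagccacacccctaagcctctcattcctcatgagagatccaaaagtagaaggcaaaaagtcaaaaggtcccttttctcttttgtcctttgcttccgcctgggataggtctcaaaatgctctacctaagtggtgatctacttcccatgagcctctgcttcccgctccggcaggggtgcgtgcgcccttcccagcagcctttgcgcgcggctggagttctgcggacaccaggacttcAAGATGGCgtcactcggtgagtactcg

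Regulators of the chain were taken from lists of other genes. Ppargc1a, a coactivator of mitochondrial biogenesis, had 417.9 and 395.1 normalised counts in wt and 3901 and 3924 in Top2β-null MEF cells, a 9.63-fold higher level (log2 fold change 3.27, SE 0.0524, adjusted p = 1.9e-17 from the edgeR test). Esrra, the nuclear receptor it coactivates, had 2467 and 2508 in wt and 4884 and 5057 in Top2β-null MEF cells, a log2 fold change of 1.00. Of the 10 biogenesis regulators tested, 5 were higher (against 32.5% of all features), namely these and Ppargc1b (0.656), Pprc1 (0.231) and Gabpa (0.194). The 4 that were lower (also against 32.5%) were Nrf1 (-0.082), Gabpb1 (-0.127), Yy1 (-0.219) and Ppara, which had 36.3 and 22.2 normalised counts in wt and 12.4 and 13.9 in Top2β-null MEF cells (log2 fold change -1.14, adjusted p = 0.0182 from the edgeR test). The median of the 10 was 0.076. The nuclear respiratory chain genes had a median of 0.058 beside these changes.

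Of the 18 genes for transcription and maintenance of mitochondrial DNA, 8 were lower (44.4%, against 32.5% of all features) and 5 were higher (27.8%, against 32.5%), with a median log2 fold change of -0.029. Tfam, which packages mitochondrial DNA and starts its transcription, had 5656 and 5702 normalised counts in wt and 4049 and 4030 in Top2β-null MEF cells, a log2 fold change of -0.491. Tfb2m, the transcription factor that opens the promoter, had 3574 and 3521 in wt and 2280 and 2443 in Top2β-null MEF cells, a log2 fold change of -0.587. Polrmt, the mitochondrial RNA polymerase, had 4082 and 4193 in wt and 3131 and 3279 in Top2β-null MEF cells, a log2 fold change of -0.368. All 3 fell without overlap between the groups, as was so for 80.5% of all features in either direction. Chromosome medians were not subtracted for the genes of this and the other lists outside the members. Top1mt, the mitochondrial type I topoisomerase, also fell (-0.616), while the termination factor family genes Mterf4 (0.709) and Mterf2 (0.225), Top3a (0.455), Ssbp1 (0.241) and Primpol (0.194) rose. Of the 15 mitochondrial RNA processing genes, 5 were lower (33.3%, against 32.5% of all features), among them Lrpprc (-0.521), which stabilises mitochondrial mRNAs. Another 4 were higher (26.7%, against 32.5%), among them the exoribonuclease gene Pnpt1 (0.708).

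Of the 38 further assembly factors of complexes I to V, 14 were higher (36.8%) and 13 were lower (34.2%), near the 32.5% of all features each way, with a median of 0.014. The complex III assembly factors Uqcc2 and Lyrm7 were called lower, 2 of the 38, where 4.97% of all features were called lower. Uqcc2 had 8252 and 7987 normalised counts in wt and 3717 and 3735 in Top2β-null MEF cells, a log2 fold change of -1.12. Lyrm7 had 286.6 and 298.5 in wt and 99.4 and 115.9 in Top2β-null MEF cells, a log2 fold change of -1.44. Of the 78 mitochondrial ribosomal protein genes, which serve the translation of the 13 mitochondrial-encoded mRNAs, 38 were lower (48.7%, against 32.5% of all features), 23 were higher (29.5%, against 32.5%) and 17 did not pass, with a median of -0.082. The changes of these 78 genes did not reach the cut-offs for a call.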

How the data were processed

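Total RNA of untreated wt and Top2β-null MEF cells was sequenced after depletion of ribosomal RNA (2 libraries each). The authors used Trim Galore! for trimming and STAR for alignment to mm10 (GRCm38), and deposited raw counts per gene and per repeat family from TEtranscripts. Its setting for strand and for reads that align to several places is not given in the sources used here, so reads of overlapping, antisense and near-identical genes may be shared between rows.

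Gene identifiers were matched to a later GENCODE annotation of the same build (54495 of 54842), which gave symbols, positions and exon lengths. Rows with 10 counts or more in 2 or more libraries were tested (26566). Counts were scaled by TMM over genes and repeats in edgeR 4.0.16 (R 4.3.3), a quasi-likelihood model with genotype as its one term was fitted, and Benjamini-Hochberg adjustment of p ran over the whole table. The fit was tested on simulated counts. Normalised counts are counts divided by the library's relative effective size (0.966 to 1.04). Log2 fold changes are Top2β-null minus wt. Calls needed an adjusted p below 0.05, a mean normalised count above 100 and a log2 fold change past 1 in either direction. Levels per kilobase used the union of a gene's exons. The spread between replicates exceeded that of counting alone (ratios of chi-square to its degrees of freedom 3.65 for the wt pair, 5.07 for the Top2β-null pair).

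The members and lists were chosen with earlier results of these data known. Genes named were Top2b, all mitochondrial-encoded genes, the Sdh genes, called members, tissue isoforms and the 3 highest and 3 lowest subunit genes of nuclear complexes I, III, IV and V by log2 fold change. Other genes were named after their values were seen. The search for nuclear copies used BLAST 2.17.0 at 90% identity or more. Alternatives were DESeq2 1.42.0, other scalings and filters, a replicate block, each library left out and, added after seeing the data, nuclear copies added, mt-Nd3 left out and chromosome medians subtracted. Sequences of promoters are from RefSeq and those of mitochondrial genes and copies from GENCODE transcripts.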

Additional observations from a re-analysis of the deposited data

How the results depend on the processing

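Of 364 values of 51 named genes with all libraries kept, 329 stayed on their side of the threshold, 31 lost it, 3 gained it and 1 that had not passed changed sign. Subtracting chromosome medians, which is outside these counts, changed the sign of 13 of 68 nuclear members that had passed, Cox6c (-0.107 to 0.511), Uqcr11 and Atp5b among them. With 1 library left out, 180 of 204 stayed, 18 lost the threshold, 3 gained it and 3 that had not passed changed sign. Calls on mt-Nd3 and Ndufb7 were kept under each refit, with mt-Nd3 at -1.04 after its nuclear copy was added. Mitochondrial-encoded genes lower at an adjusted p below 0.05 numbered 6 by DESeq2 and 7 with total count scaling (12 in the main test), and 8 to 13 with 1 library left out, where 0 to 1 were higher. The difference in the log2 ratio of mitochondrial-encoded to nuclear counts was -0.404 as a mean of log2(count + 1) in place of -0.199, and -0.241 to -0.157 with 1 library left out.

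Medians of nuclear genes moved by more than the small spread between replicates. For all nuclear genes the median of 0.058 became 0.065 by DESeq2, 0.077 with TMM from genes only, 0.076 with TMM from nuclear genes only, 0.127 with total count scaling, 0.075 with no filter, 0.065 with subunits only and 0.088 with chromosome medians subtracted. In the same order without DESeq2 and subunits only, complex I (0.020) gave 0.038, 0.038, 0.089, 0.037 and 0.031, and complex V (0.066) gave 0.085, 0.085, 0.136, 0.083 and 0.187. Complex II (0.145) gave 0.164 with both TMM alternatives, 0.215 with total count scaling and 0.162 with no filter. Complex III (0.105) gave 0.175 with total count scaling and 0.140 with chromosome medians subtracted, and complex IV (0.228) gave 0.298 with total count scaling and 0.178 with at least 100 counts in every library. The median of all genes itself moved by at most 0.070 under these scalings and filters (total count scaling). With 1 library left out the medians ranged from 0.036 to 0.095 for all nuclear genes, -0.268 to -0.109 for mitochondrial-encoded genes, -0.023 to 0.057 for complex I, 0.130 to 0.188 for complex II, 0.088 to 0.176 for complex III, 0.110 to 0.289 for complex IV and 0.047 to 0.108 for complex V. The complex I median thus changed sign without wt replicate 2 (-0.023). The cause of these shifts was not tested.

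Replicate numbers do not pair the libraries (correlation of deviations 0.0046 over 16443 features). With the replicate number as a replicate block, 39 nuclear genes were higher and 30 lower, 11 mitochondrial-encoded genes were lower, and the calls on mt-Nd3 and Ndufb7 were kept. With 2 libraries per group, 1 library can decide changes as small as those of mt-Nd4, mt-Nd5, mt-Nd6, mt-Cytb, mt-Co1, mt-Atp6 and mt-Atp8.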
